A study of Rattus norvegicus with 54 samples.

Results

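Transcripts in gastrocnemius muscle, a limb muscle of mixed fibre type, were compared between obese male Zucker rats given troglitazone and untreated obese rats. The members are 6 arrays of the 54 in the series: the 3 muscle arrays labelled for troglitazone and the 3 labelled for obese animals on normal chow. They were picked by their labels, with earlier results of these data known. Each array carried RNA pooled from 2 rats, so 3 arrays stood for 6 rats. Both groups were homozygous for the fatty mutation (fa/fa), which disables the leptin receptor and makes the rats obese and insulin resistant.

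The series measured epididymal fat, liver and gastrocnemius muscle on rat expression arrays, with 6 groups of 3 arrays per tissue. Besides the groups above, these were lean fa/+ rats on normal chow and fa/fa rats given pioglitazone, rosiglitazone or a compound named only by its code, AG035029. The question behind the comparison is how ligands of the nuclear receptor PPARgamma act in each insulin-responsive tissue. The dose, duration, route and age of the animals are not in the labels. The labels do not say whether pools shared animals or were made on different days, so p-values measure the spread between these pools.

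PPARgamma is a ligand-activated transcription factor that pairs with the retinoid X receptor on DNA and drives fat cell formation, fatty acid uptake and triglyceride storage. It is abundant in adipocytes and scarce in muscle fibres, whose fatty acid oxidation is governed largely by its relatives PPARalpha and PPARdelta. Troglitazone, pioglitazone and rosiglitazone are thiazolidinediones, which raise whole-body insulin sensitivity, and troglitazone carries a vitamin E-like chroman group where the other thiazolidinediones carry a pyridine-containing tail. Fat cells lie between and around the fibres of a limb muscle, together with capillaries, so a muscle sample holds their transcripts as well.

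The tissue label was checked first. Ckm, the muscle creatine kinase, had signals from 43420 to 114400 on the 18 muscle arrays against at most 580.4 in adipose tissue, and myoglobin (Mb) 20090 to 40530 against at most 19.2. Values are MAS5 signals, in linear units that the authors had scaled so that the trimmed mean is 500 on every array. The median signal of the muscle arrays lay between 191 and 232. The array with the lowest median correlation with the other muscle arrays was troglitazone array 2, at 0.9114. Differences below are on the scale log2(signal + 20), which understates changes of weak probe sets, and are given with a standard error and a Benjamini-Hochberg adjusted p from limma, called below 0.05, with n = 3 arrays per group. Signals of a group are listed in the order of arrays 1, 2 and 3.

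The summed signal of a list of adipocyte markers was higher on each troglitazone array than on any untreated array, and it differed among the 3 troglitazone arrays. The summed signal of 17 measured adipocyte markers, as a percentage of the mean in untreated obese epididymal fat, was 8.11, 16.7 and 10.9% on the untreated muscle arrays and 70.9, 59.1 and 33.1% with troglitazone. Troglitazone array 1 was the highest and array 3 the lowest, and the groups did not overlap. In lean muscle the sum was 9.88 to 11.9%.

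Fabp4, Lpl and Cav1 are also made by capillary endothelium or muscle. Without them the sum of the other 14 markers was 2.93, 4 and 4.06% on the untreated arrays and 45.1, 24.4 and 12% with troglitazone. Troglitazone array 1 therefore stood 3.75 times above array 3 on this measure, and both stood above every untreated array. The list is not specific to fat: the sum of the 17 markers had a mean of 102000 in untreated adipose tissue and 102800 in untreated liver, which also makes Thrsp, Pck1, Rbp4, Agt and Orm1. Thrsp, which rose in muscle, made up 45.5, 43.7 and 33.6% of the 14-marker sum on the troglitazone arrays. A narrower sum was therefore taken after the values were seen, over the 7 of the 14 markers whose liver mean was under 10% of the adipose mean (Plin1, Lep, Cfd, Cidea, Aqp7, Lipe and Acvr1c). It was 3.54, 4.88 and 4.13% of the adipose mean on the untreated arrays and 28.5, 17.4 and 9.58% with troglitazone, and Cidea and Aqp7 among the 7 also rose.

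**Figure D1:**
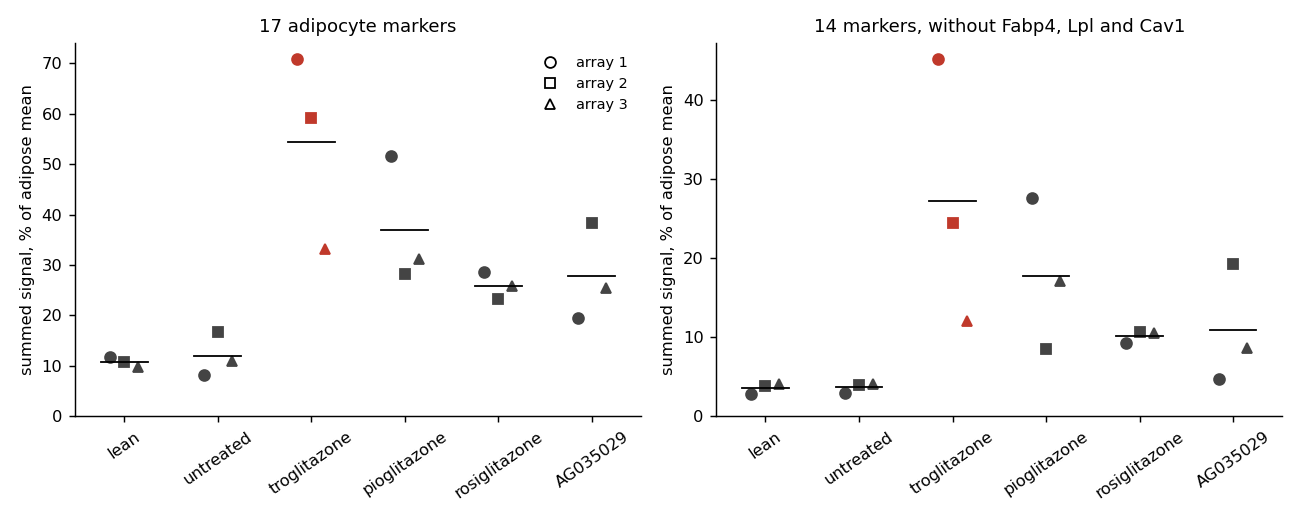
Summed signal of adipocyte markers on each muscle array, as a percentage of the mean of the 3 untreated obese adipose arrays (vertical axis, linear), by group. Points are arrays and lines are group means. The 3 troglitazone arrays lie between 33.1 and 70.9% for 17 markers and between 12 and 45.1% for 14 markers, above every untreated obese array.

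All 17 measured adipocyte markers had a higher mean in the treated group, 7 of them rose by the test and none fell. The list's median difference was 1.83, beside -0.0338 for all 15866 probe sets, and 0.599% of all probe sets tested rose. The fat-restricted hormone leptin (Lep) gave signals of 13.1, 25.2 and 47.2 without and 271, 56.2 and 29.2 with troglitazone, too weak to be tested. Array 1 was the highest for leptin, and array 3 lay within the untreated range. Hormone-sensitive lipase (Lipe), which splits stored triglyceride, gave 22.1, 86.1 and 48 untreated and 579, 708 and 282 treated, again below the level at which probe sets were tested.

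Perilipin 1 (Plin1), the coat of the fat cell droplet, gave 205, 103 and 117 without and 398, 343 and 148 with the drug, and its difference of 0.91 ± 0.42 (adjusted p = 0.433) was not called. Adipsin (Cfd), a complement factor secreted by fat cells, had 557, 617 and 439 untreated and 3522, 2403 and 872 treated. Its arrays did not overlap, but the difference of 1.83 ± 0.56 (adjusted p = 0.196) was not called. Without troglitazone array 3 it was called, at 2.41 (adjusted p = 0.0444). The remaining uncalled markers were Cav1 at 0.48 and 0.63 by probe set, Orm1 at 0.48, Adrb3 at 0.47 and, untested, Acvr1c at 0.52, Agt at 0.69 and Slc7a10 at 1.05. Adiponectin, resistin and Cidec were not measured here. More fat cells in the sample and more RNA per fat cell cannot be told apart in such data, and the part of admixed fat in each result below was not tested beyond the values given.

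Of 9519 probe sets tested, 67 differed between troglitazone and untreated obese muscle, which is 0.704%. Of these, 57 (0.599%) were higher and 10 (0.105%) lower with the drug, and 1017 probe sets (10.7%) had an unadjusted p below 0.05. For 66 of the 67 no treated array overlapped an untreated one, against 13.7% of all probe sets tested. The 57 covered 44 named genes with differences from 0.77 to 4.82, and the 10 covered 9 named genes with differences from -2.29 to -0.91. The median over all probe sets tested was -0.0458.

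Single arrays weighed on the count. It was 57 without troglitazone array 1, 26 without array 2 and 103 without array 3. Of these calls, 35, 24 and 58 were among the 67. Without untreated arrays 1, 2 and 3 the count was 25, 89 and 36, of which 24, 53 and 34 were among the 67. Troglitazone array 2 and rosiglitazone array 2 correlated least with the rest. Without both, a choice made after seeing the data, the count was 25, of which 22 were among the 67. In each of the 6 fits that left out 1 troglitazone or untreated array, 20 of the 67 probe sets were called. They measured Rbp7, Mgll with 3 probe sets, Fabp5, Gpihbp1, Fabp4, Scd, Fos, Thrsp with 3, Aqp7, Pck1, Tinagl1, Por, Mgst1, Insig1 and Igfbp5, and 1 had no gene name.

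**Figure D2:**
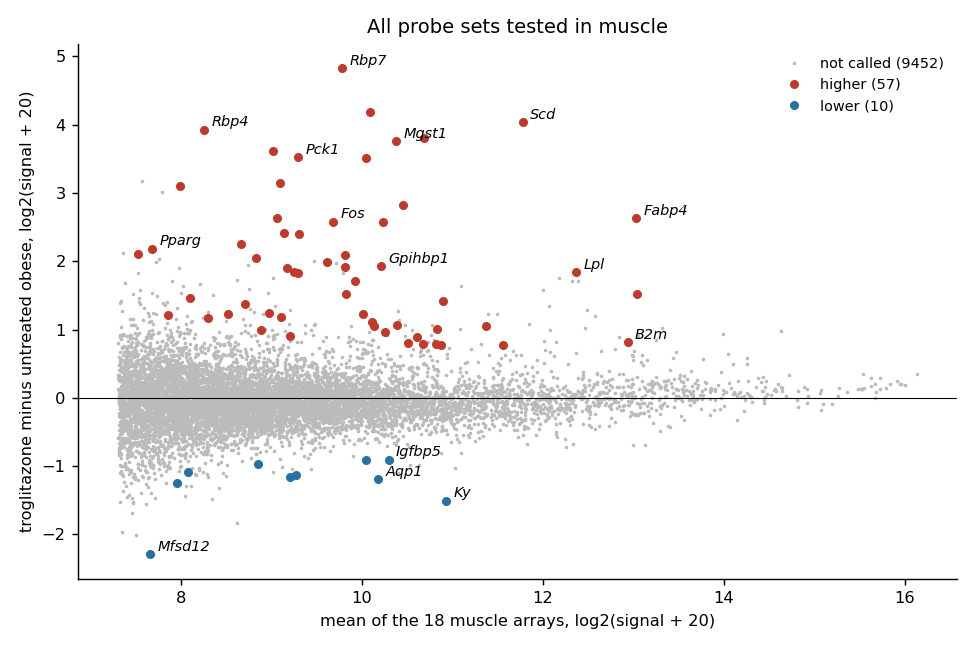
Difference between troglitazone and untreated obese muscle (vertical axis, log2 scale) against the mean level of each of 9519 probe sets (horizontal axis, log2 scale). The 57 probe sets called higher reach 4.82 for Rbp7, and the 10 called lower reach -2.29 for Mfsd12.

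The order of the treated arrays for these genes was read beside that of the adipocyte marker sum. Of the 57 higher probe sets, 49 of 57 had their lowest troglitazone signal on array 3, against a share of 32.98% over all probe sets tested. Their highest was on array 1 for 34 of 57, against a share of 34.28%. The counts are not percentages, and as parts of 57 both lie above these shares. Of these 57, 9 measure genes of the adipocyte list itself, and among the other 48 the counts were 40 and 26. In untreated animals 56 of the 57 had a higher mean in adipose tissue than in muscle, against 47.41% of all probe sets tested. The highest troglitazone array exceeded the lowest by 1.15 to 9.12 times, with a median of 1.85.

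Among the receptors, Pparg itself rose. Its signal was 31.4, 48.2 and 51.3 on the untreated arrays and 317, 245 and 242 with troglitazone, a difference of 2.18 ± 0.40 (adjusted p = 0.0119). The treated arrays lay close together and all were above the untreated ones. The call ended without untreated array 1 (adjusted p up to 0.0745). In untreated obese muscle Pparg was -2.20 relative to lean muscle, a difference that was not called (adjusted p = 0.0837).

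No other receptor or partner changed by the test: of 16 measured, 13 of them tested, 1 rose and none fell, with a median of 0.0469. The retinoid X receptors, which pair with every PPAR, gave -0.05 (adjusted p = 0.991) for Rxra and -0.03 (adjusted p = 0.983) for Rxrg, the muscle form. Ppard, the receptor of oxidative fibres, had -0.17 (adjusted p = 0.828), and Ppara was too weak to be tested, with signals of 12.6, 23.9 and 22.6 untreated and 13.5, 21.3 and 22.4 treated. The coactivator Ppargc1a, which drives mitochondrial gene expression, went from 92.8, 268 and 16.4 to 211, 519 and 292. Untreated array 2 overlapped the treated arrays, and the difference of 1.68 ± 0.56 (adjusted p = 0.236) was not called. Without untreated array 2 it was called, at 2.4 (adjusted p = 0.0324).

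Genes of fatty acid delivery and uptake rose in part: 5 of 17 measured rose, none fell, and the median was 0.703. Over all probe sets tested 0.599% rose, 0.105% fell and the median was -0.0458. These shares stand beside each list count below. The largest change of all probe sets was Rbp7, a retinol-binding protein of fat tissue and capillary endothelium. Its signals were 85.6, 172 and 83.3 on the untreated arrays and 3539, 4236 and 3132 with troglitazone. All 3 treated arrays were far above the untreated range and within 1.35 times of each other. Among the same arrays the sum of all 17 adipocyte markers ran from 33.1 to 70.9% of the adipose mean. The summed signal of the 14 markers, of which Thrsp is a large part, differed more widely, 3.75-fold. The narrower 7-marker sum ran from 9.58 to 28.5% of the adipose mean there. What sets the order of the arrays was not tested. The Rbp7 difference was 4.82 ± 0.39 (adjusted p = 1.01e-06), and it was called in all 19 alternative settings tried.

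Gpihbp1, the endothelial protein that carries lipoprotein lipase into the capillary, gave 428, 659 and 654 untreated and 1690.1, 3147 and 2058 treated. Array 2, not array 1, was the highest of the treated arrays, and the rise of 1.93 ± 0.23 (adjusted p = 0.000204) held without any single array. Lipoprotein lipase (Lpl), which frees fatty acids from circulating triglyceride, gave 1796, 6298 and 2400.4 without and 9309, 15426 and 8730.3 with the drug. Untreated array 2 was high for Lpl, though below all treated arrays. The difference was 1.83 ± 0.33 (adjusted p = 0.00962), and it was not called without troglitazone array 2 or untreated arrays 1 or 3 (adjusted p up to 0.082).

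The fatty acid binding proteins differed by type. Fabp4, the form of fat cells, endothelium and macrophages, rose by 2.63 ± 0.32 (adjusted p = 0.000204), from 2537, 5139 and 2982 to 27776, 23709 and 14221. Fabp5, the epidermal form, which fat and endothelium also hold, rose by 1.91 ± 0.22 (adjusted p = 0.000145), from 383, 487 and 396 to 1759, 2104 and 1170.4. In both cases the groups were well apart and array 3 was the lowest treated array. Fabp3, the form of muscle fibres, had 5179, 18355 and 12009 untreated and 6147, 19448 and 16153 treated, with overlapping groups and a difference of 0.25 ± 0.42 (adjusted p = 0.9).

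Slc27a1, a fatty acid transport protein, rose by 0.99 ± 0.21 (adjusted p = 0.0287), from 333, 353 and 374 to 926, 751 and 537. The Slc27a1 call ended without troglitazone arrays 1 or 2 or untreated arrays 1, 2 or 3 (adjusted p up to 0.154). Cd36, the fatty acid translocase, did not pass the test, and its signals were 2027, 5805 and 2460.2 untreated and 7632, 7882 and 8038 treated. The treated arrays for Cd36 were nearly equal and above every untreated array, of which array 2 was high, and the difference was 1.35 ± 0.34 (adjusted p = 0.0859). Without that array Cd36 was called, at 1.8 (adjusted p = 0.00616). Angptl4, a secreted inhibitor of lipoprotein lipase and a PPAR target in many tissues, was also just outside the threshold, at 1.97 ± 0.46 (adjusted p = 0.0511). Angptl4 was called in 6 of 19 alternative settings, with an adjusted p down to 0.0109.

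**Figure D3:**
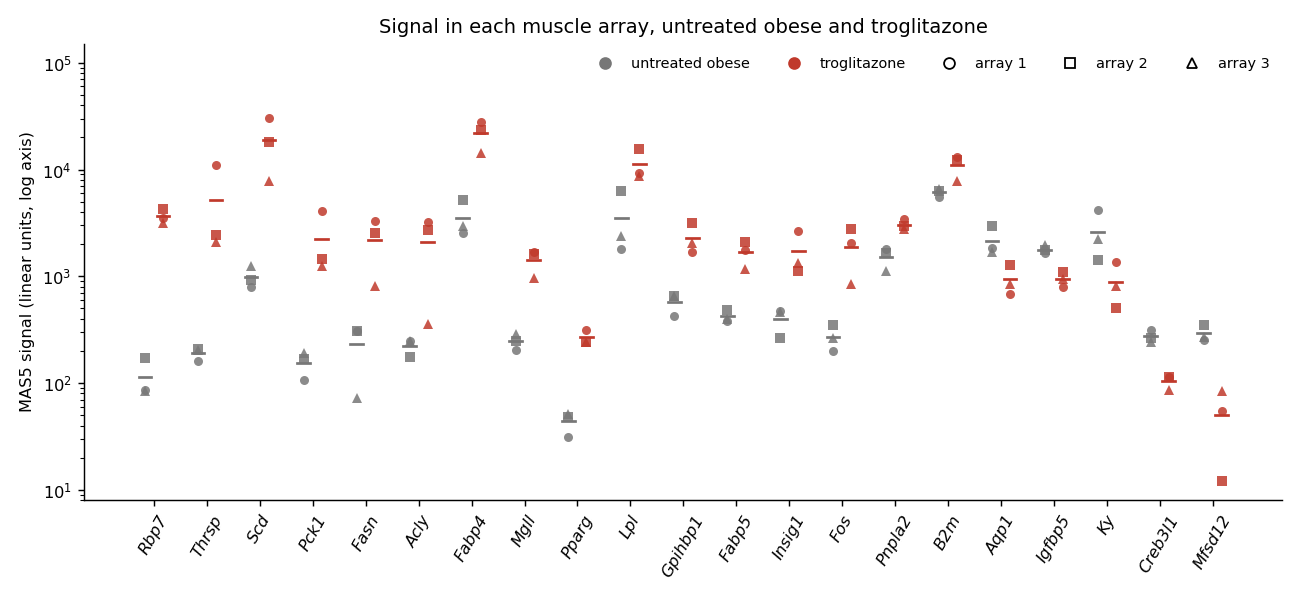
MAS5 signal (vertical axis, log scale) of named genes on each untreated obese and troglitazone muscle array. Circles, squares and triangles are arrays 1, 2 and 3, and lines are means. For Acly, Fasn and Scd troglitazone array 3 lies well below arrays 1 and 2, whereas for Rbp7 and Pparg the 3 treated arrays lie close together.

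Enzymes of fatty acid synthesis gave the next largest rises, with 5 of 19 measured genes higher, none lower and a median of 0.675. The share called higher over all probe sets tested was 0.599%. Scd, the desaturase that makes monounsaturated fatty acids, had 798, 915 and 1252 untreated and 30434, 17990 and 7789 with troglitazone, a rise of 4.04 ± 0.55 (adjusted p = 0.000558). Every treated array was above every untreated one, and array 1 was 3.91 times array 3. Thrsp (Spot 14), a lipogenic regulator, was measured by 3 probe sets, which rose by 4.19 ± 0.58, 3.80 ± 0.58 and 3.61 ± 0.62 (adjusted p = 0.000671, 0.00171 and 0.00572).

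The core enzymes of synthesis rose less evenly. Fatty acid synthase (Fasn) went from 536, 365 and 416 to 10089, 9354 and 1462 by one probe set, a difference of 3.52 ± 0.78 (adjusted p = 0.0373), and by 3.15 ± 0.66 (adjusted p = 0.0261) by the other. ATP citrate lyase (Acly), which supplies acetyl-CoA, had 246, 176 and 246 untreated and 3228, 2736 and 354 treated, with arrays 1 and 2 far above the untreated range, array 3 little above it, and 9.12 times between the highest and lowest treated array. Its difference was 2.64 ± 0.58 (adjusted p = 0.0362).

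Acetyl-CoA carboxylase (Acaca) rose by 1.72 ± 0.36 (adjusted p = 0.0261) in one probe set, while the other stood at -0.04 (adjusted p = 0.988). The elongase Elovl6, named after its values were seen, had 1059.7, 1028 and 146 with the drug and a difference of 3.17 ± 0.78 (adjusted p = 0.0675), which was not called.  Insig1, the sterol-regulated brake on SREBP processing, rose by 1.99 ± 0.35 (adjusted p = 0.0066). It was the only gene called of 18 measured in cholesterol synthesis, of which only 9 were tested. The call for Acly ended without troglitazone arrays 1 or 2 or untreated arrays 1, 2 or 3 (adjusted p up to 0.257), and that for Acaca without troglitazone arrays 1 or 2 or untreated arrays 1 or 3 (adjusted p up to 0.175). Of the Fasn probe sets, the first was not called without troglitazone arrays 1 or 2 or untreated arrays 1, 2 or 3 (adjusted p up to 0.239), and the second without troglitazone arrays 1 or 2 or untreated arrays 1 or 3 (adjusted p up to 0.148).

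Triglyceride storage and breakdown rose together in 6 of 22 measured genes, with none lower and a median of 1.04, against 0.599% higher over all probe sets tested. Pck1, which makes the glycerol backbone of triglyceride in fat cells, went from 106, 166 and 190.1 to 4058, 1439 and 1244, a rise of 3.52 ± 0.54 (adjusted p = 0.00179). Mgll, the monoglyceride lipase that completes lipolysis, rose in 3 probe sets, by 2.58 ± 0.34, 2.40 ± 0.27 and 2.10 ± 0.28 (adjusted p = 0.000392, 0.000124 and 0.00041), while the fourth was too weak to be tested. The probe set with the strongest signal gave 462, 488 and 499 untreated and 2842, 5759 and 1626 treated. The others gave 1704, 1606 and 958 and 2128, 2394 and 1164 treated, so the highest treated array differed by probe set, and array 3 was the lowest by all 3.

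Aqp7, the glycerol channel of fat cells, gave 113, 378 and 369 untreated and 2196, 1366 and 999 treated, a rise of 2.42 ± 0.36 (adjusted p = 0.00165) with no overlap. Pnpla2, which starts lipolysis, rose by 1.01 ± 0.22 (adjusted p = 0.0287), from 1799, 1639.5 and 1113 to 3408, 2936 and 2762. Unlike the synthetic enzymes, its treated arrays were within 1.23 times of each other.

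Of the droplet coat proteins, Plin2, found on droplets of most cells including muscle, rose by 1.18 ± 0.21 (adjusted p = 0.00826) in one probe set and stood at 0.12 (adjusted p = 0.945) in the other. Cidea, a droplet protein of fat cells, rose by 1.85 ± 0.42 (adjusted p = 0.0402), from 243, 387 and 322 to 2329.5, 852 and 816, with array 1 far above the other treated arrays. Dgat2, which adds the last fatty acid to triglyceride and was named after its values were seen, was not called at 1.27 ± 0.32 (adjusted p = 0.0778). Single arrays ended the calls for Pnpla2 without troglitazone arrays 1 or 2 or untreated array 3 (adjusted p up to 0.165), Plin2 without troglitazone array 2 or untreated array 1 (adjusted p up to 0.0745) and Cidea without troglitazone arrays 1 or 2 or untreated arrays 1 or 3 (adjusted p up to 0.227).

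A list of 28 established PPARgamma targets, 23 of them measured, held 7 that rose and none that fell, with a median of 0.99. Over all probe sets tested 0.599% rose, with a median of -0.0458. Of these 7, Fabp4, Lpl, Pck1, Aqp7 and Cidea are also on the adipocyte list, so the lists are not independent. The others were Plin2 and Slc27a1.

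Promoters of genes that rose were read for the letters PPARgamma and its partner are known to bind, since these genes moved together. RefSeq gave a promoter on assembly GRCr8 for 31 of the 44 named genes that rose. Of these, 1 gene, Tinagl1, held the spaced repeat, which is AGGNCA, any 1 base and AGGNCA again, on either strand in the 250 bases before its start, against 0.368% of all 33469 promoters. The single motif AGGTCA was in 4 (12.9%: Pck1, Por, Slc27a1 and Tinagl1), against 14.1% of all promoters. A different motif, the E-box CACGTG, which is not the PPARgamma motif, was read as well. It was in 4 (12.9%: Insig1, Mgll, Mt2A and Plin2), against 5.59% of all promoters. A match is a run of letters, and sites farther from the start were not read. The promoters below are shown because Rbp7 had the largest rise, Tinagl1 the only spaced repeat and Pck1 a single AGGTCA. Each is the 250 bases before the gene start, 5′ to 3′ on the strand of the gene, and capitals mark AGGTCA or the spaced repeat, or their reverse complements.
Rbp7 (chr5:165177400-165177649, minus strand, GRCr8): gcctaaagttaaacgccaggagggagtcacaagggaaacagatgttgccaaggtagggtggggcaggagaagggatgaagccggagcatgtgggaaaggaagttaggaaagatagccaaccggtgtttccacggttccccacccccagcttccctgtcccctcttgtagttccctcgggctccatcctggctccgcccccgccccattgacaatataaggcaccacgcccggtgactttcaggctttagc
Tinagl1 (chr5:147807264-147807513, minus strand, GRCr8): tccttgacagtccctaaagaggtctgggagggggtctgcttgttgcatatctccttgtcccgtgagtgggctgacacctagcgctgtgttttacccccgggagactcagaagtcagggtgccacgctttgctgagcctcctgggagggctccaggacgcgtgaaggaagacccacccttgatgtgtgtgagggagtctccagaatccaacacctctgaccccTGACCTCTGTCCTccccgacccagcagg
Pck1 (chr3:182348322-182348571, plus strand, GRCr8): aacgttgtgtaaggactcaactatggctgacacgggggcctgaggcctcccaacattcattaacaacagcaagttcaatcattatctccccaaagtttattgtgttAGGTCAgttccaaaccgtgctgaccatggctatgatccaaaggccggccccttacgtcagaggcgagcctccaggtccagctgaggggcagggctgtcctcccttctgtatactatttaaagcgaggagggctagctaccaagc

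The Tinagl1 match starts 28 bases before the gene start and the Pck1 match 144 bases before it, and Rbp7 held neither run of letters in this window.

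Genes by which muscle burns fatty acids did not change by the test: of 28 measured genes of mitochondrial fatty acid oxidation none rose or fell, and the median was 0.0696. Cpt1b, the muscle gate for fatty acid entry into mitochondria, had 3126, 3120.3 and 2386 untreated and 2109, 3328 and 3599.8 treated, which overlap, and a difference of 0.04 ± 0.20 (adjusted p = 0.98) with a 95% interval of -0.38 to 0.46. Ucp3, a mitochondrial carrier induced by fatty acids in muscle, had 0.53 ± 0.32 (adjusted p = 0.608).

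Pdk4, which shuts pyruvate out of oxidation when fatty acids are burned, went from 3756, 7342 and 3864 to 7289, 15315 and 13749. Treated arrays 2 and 3 were above the untreated range and array 1 within it, and the difference of 1.28 ± 0.44 (adjusted p = 0.257) was not called. Of 68 measured genes of the citrate cycle and respiratory chain 1 rose, the cytochrome c oxidase subunit Cox6a1, by 0.88 ± 0.19 (adjusted p = 0.0287), and the median was 0.04. Cox6a1 encodes the form found outside muscle, and its call ended without troglitazone arrays 1 or 2 or untreated arrays 1, 2 or 3 (adjusted p up to 0.179).

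Genes of glucose handling and insulin signalling had medians near that of all probe sets. Of 31 measured genes of glucose uptake, glycolysis and glycogen 1 rose, the non-muscle phosphoglycerate mutase Pgam1, by 1.07 ± 0.24 (adjusted p = 0.0402), and the median was 0.0371. The insulin-responsive glucose transporter Slc2a4 (GLUT4) had 3288, 4491 and 4311 untreated and 4228, 4689 and 5984 treated, a difference of 0.30 ± 0.14 (adjusted p = 0.471).

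Hexokinase 2 (Hk2), which traps glucose in the fibre, had 272, 279.6 and 338 untreated and 494, 678 and 560.0 treated. Its arrays did not overlap, but the difference of 0.91 ± 0.27 (adjusted p = 0.188) was not called. None of 26 measured insulin signalling genes, 21 of them tested, was called, with a median of 0.035. Irs2, an adaptor of the insulin receptor, stood at 0.99 ± 0.52 (adjusted p = 0.527) with 172, 1097 and 549 on the treated arrays, and Irs1 was too weak to be tested. The 2 tested probe sets for the leptin receptor, which the fa mutation disables, stood at -0.38 and -0.29 and were not called. Pgam1 lost its call without troglitazone arrays 1 or 2 or untreated arrays 1 or 3 (adjusted p up to 0.274).

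Fibre type genes varied widely between pools. Of 16 measured slow fibre genes none was called, and their median was 0.869. Their summed signal was 56410, 228200 and 127800 on the untreated arrays and 92570, 267200 and 239600 with troglitazone, so the groups overlapped and array 1 was the lowest in both. The slow myosin Myh7 had 2280.2, 33285 and 14691 untreated and 7205, 31493 and 34920 treated, a difference of 0.94 ± 0.76 (adjusted p = 0.735), and its other probe set stood at 1.23, not called. Fast fibre genes had 18 measured members, none called, and a median of 0.125. Muscle structural genes had 25, none called, and a median of 0.151.

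Among genes known to respond within minutes to stimulation, of 26 measured, 21 of them tested, 1 rose, 1 fell and the median was 0.576. The shares over all probe sets tested were 0.599% higher and 0.105% lower. Fos, a component of the AP-1 factor, had 198, 352 and 266 untreated and 2042, 2769.8 and 839 treated, a rise of 2.58 ± 0.36 (adjusted p = 0.000624) without overlap. The other Fos probe set was at -0.04 (adjusted p = 0.993). Egr3, a zinc finger factor of muscle spindles, fell by 1.09 ± 0.25 (adjusted p = 0.0402), from 357, 382 and 324 to 197, 131 and 144.

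Nr4a3, an orphan nuclear receptor induced by exercise and named after its values were seen, had 53.3, 191 and 167 untreated and 314, 4559 and 960.3 treated. The values differed 14.5-fold among treated arrays, with array 2 the highest, and the difference of 3.01 ± 0.72 (adjusted p = 0.0585) was not called. Lean muscle had Fos signals of 1659.5, 1050.1 and 1734, and untreated obese muscle minus lean muscle was -2.36 (adjusted p = 0.0194).

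Of 31 measured genes of oxidative stress defence 2 rose, Mgst1 and Mt2A, against 0.599% over all probe sets tested. None fell, and the median was 0.189. Of 22 measured genes of xenobiotic metabolism, 15 of them tested, none was called through its strongest probe set, and the median was -0.0734. Mgst1, a membrane glutathione transferase, had 395, 366 and 389 untreated and 9555, 9652 and 1714 treated, a rise of 3.75 ± 0.61 (adjusted p = 0.0031) in which array 3 stood well below arrays 1 and 2. Por, which passes electrons to cytochromes P450, had 69.5, 62.6 and 28.5 untreated and 316, 235 and 312 treated, a rise of 2.10 ± 0.33 (adjusted p = 0.00264), with treated arrays within 1.34 times of each other. Its other probe set stood at 0.30 (adjusted p = 0.849).

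Cdo1 and Csad, enzymes on the path from cysteine to taurine, rose by 2.82 ± 0.53 (adjusted p = 0.0124) and 1.23 ± 0.26 (adjusted p = 0.0299). The metallothionein Mt2A, a metal-binding protein, rose by 1.22 ± 0.27 (adjusted p = 0.0373), with nearly equal treated signals of 1902, 1708 and 1567 after 651, 872 and 675. Cdo1 was not called without troglitazone arrays 1 or 2 or untreated array 1 (adjusted p up to 0.0865), Csad not without troglitazone arrays 1 or 2 or untreated arrays 1, 2 or 3 (adjusted p up to 0.197), and Mt2A not without troglitazone arrays 1, 2 or 3 or untreated arrays 1 or 3 (adjusted p up to 0.207).

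Rbp4, the plasma retinol carrier secreted by liver and fat, had 12.7, 128 and 137 untreated and 2765, 1389 and 659.7 treated, a rise of 3.92 ± 0.73 (adjusted p = 0.0121). Trarg1, which governs glucose transporter traffic in fat cells, rose by 3.09 ± 0.58 (adjusted p = 0.0124), and Prkar2b, the regulatory subunit of protein kinase A in fat, by 2.25 ± 0.46 (adjusted p = 0.0231). For all 3 genes troglitazone array 1 was the highest and array 3 the lowest, the order of the adipocyte marker sum, of which Rbp4 is itself a member. Rbp4 was not called without troglitazone arrays 1 or 2 or untreated array 1 (adjusted p up to 0.0967), Trarg1 not without troglitazone arrays 1 or 2 or untreated array 1 (adjusted p up to 0.0865), and Prkar2b not without troglitazone arrays 1 or 2 or untreated arrays 1 or 2 (adjusted p up to 0.171).

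Other rises had another order of arrays. Tinagl1, a secreted matrix protein of vessel walls, had 161, 437 and 222 untreated and 1034, 1489 and 861 treated, a rise of 2.04 ± 0.32 (adjusted p = 0.00182) with array 2 highest. The endothelial sphingosine phosphate receptor S1pr1 had 964, 912 and 720.2 untreated and 1474, 2643 and 1479.6 treated, a rise of 1.05 ± 0.19 (adjusted p = 0.0119). Efna5, an ephrin guidance ligand, rose by 1.21 ± 0.27 (adjusted p = 0.0362), from 125, 154 and 94.3 to 341, 232 and 371, and Pkp4, a junction protein, by 1.16 ± 0.24 (adjusted p = 0.0256). For Efna5 array 3 was the highest treated array. S1pr1 was not called without troglitazone array 2 or untreated array 3 (adjusted p up to 0.0793), Efna5 not without troglitazone arrays 1 or 3 or untreated arrays 1 or 3 (adjusted p up to 0.152), and Pkp4 not without troglitazone arrays 1 or 2 or untreated arrays 2 or 3 (adjusted p up to 0.138). The second probe sets of S1pr1 and Efna5 were too weak to be tested.

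Smaller rises, of 0.77 to 1.90, were called for Tkt, Hsd17b12, Fads3, Fam107a, Mgst2, Sptbn1 with 2 probe sets, B2m, Anxa5, Cavin3 and Rhob. Tkt, the transketolase of the pentose phosphate path, had 1.90 ± 0.36 (adjusted p = 0.013), and Hsd17b12, an enzyme of fatty acid elongation, 1.82 ± 0.34 (adjusted p = 0.0124). B2m, the light chain of class I antigen presentation, had 0.81 ± 0.17 (adjusted p = 0.0286). It was the only called gene of 21 measured, 12 of them tested, in antigen presentation and lymphocytes. All of these calls ended without at least 1 single array.

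Falls were fewer and smaller, and 9 named genes fell. Igfbp5, which binds insulin-like growth factors and is made by muscle, had 1641, 1747 and 1955 untreated and 802, 1085 and 945 treated, a fall of 0.91 ± 0.16 (adjusted p = 0.00572) that was called without any single array. Its other probe sets stood at 0.69, not called, and 0.08, not tested. Aqp1, the water channel of capillaries, had 1854, 2931 and 1698 untreated and 686, 1287 and 846 treated, a fall of 1.19 ± 0.23 (adjusted p = 0.0148), and its other probe set stood at -0.62 (adjusted p = 0.365).

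The largest fall was that of Mfsd12, a lysosomal transporter, by 2.29 ± 0.44 (adjusted p = 0.0127). Its signals were 251, 351 and 272 untreated and 54.8, 12.1 and 83.7 treated, and its other probe set stood at 0.70 (adjusted p = 0.606). Ky, a muscle cytoskeletal protein named for the kyphoscoliosis mouse, fell by 1.51 ± 0.35 (adjusted p = 0.0476), from 4174, 1423 and 2249.6 to 1351, 507 and 805. Its other probe set stood at -1.10 (adjusted p = 0.172).

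Creb3l1, a membrane-bound transcription factor of the secretory pathway, fell from 316, 264 and 240.1 to 114, 113 and 85.6, and Plcd4, a phospholipase C of muscle and other tissues, from 1083, 475 and 580.0 to 398, 203 and 298. Their differences were -1.24 (adjusted p = 0.0362) and -1.16 (adjusted p = 0.0412). Tatdn3, a putative nuclease, and Dvl1, a Wnt pathway adaptor, stood at -1.13 (adjusted p = 0.0285) and -0.97 (adjusted p = 0.0369). Besides Igfbp5, each of the named falls was lost without at least 1 array. Aqp1 was not called without troglitazone array 1 or untreated array 2 (adjusted p up to 0.0683), Mfsd12 not without troglitazone array 2 or untreated array 1 (adjusted p up to 0.0857), and Egr3 not without troglitazone arrays 2 or 3 or untreated arrays 1, 2 or 3 (adjusted p up to 0.222). Ky, Plcd4 and Tatdn3 each lost their call without troglitazone array 2 or 3 or untreated array 1 or 3, and Dvl1 and Creb3l1 without at least 5 of the 6 arrays (adjusted p up to 0.352, 0.305, 0.137, 0.22 and 0.22).

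Markers of other cells in muscle were read beside these results. Of 27 measured endothelial and vascular genes none was called, the median was 0.235, and the summed signal was 26720 to 27630 on untreated and 29310 to 35310 on treated arrays. The VEGF receptor Kdr, named after its values were seen, had 416, 239 and 543 untreated and 709.9, 974 and 799 treated, a difference of 1.08 ± 0.27 (adjusted p = 0.0859) without overlap. Macrophage markers had 24 measured members, none called, a median of 0.017 and sums of 8292 to 10700 untreated and 8215 to 12800 treated.

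Extracellular matrix and fibroblast genes had 44 measured, none called, and a median of -0.147. Nerve and Schwann cell genes had 16, of which 10 were tested and none called, and a median of 0.23. Blood cell genes had 8, of which 5 were tested and none called, a median of -0.136, and sums of 15240 to 35570 untreated and 15160 to 56230 treated. Among blood genes S100a9, a neutrophil protein, gave 11.7, 7.2 and 22 untreated and 651, 491 and 13.2 treated, too weak to be tested, with treated arrays 1 and 2 high and array 3 within the untreated range. Clock genes had 14 measured, none called, and a median of -0.477. The clock output gene Dbp had 564, 438 and 337 untreated and 289, 202 and 70.7 treated, a difference of -1.31 ± 0.42 (adjusted p = 0.222).

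Results were also set against the level of the adipocyte marker list. With the mean level of the adipocyte markers of each array as a covariate, 2 probe sets were called, and 1 of the 67 was among them, Rbp7, at 4.25 ± 0.70 (adjusted p = 0.0398). The covariate is itself far higher in the treated group, includes genes that rose, and raised the median standard error from 0.247 to 0.444, so a lost call was not read as a weaker effect. With it Por stood at 2.30, Gpihbp1 at 1.97, Fos at 1.84, Pkp4 at 1.44, S1pr1 at 1.16, Pparg at 1.01, Scd at 0.86, Aqp1 at -1.25 and Igfbp5 at -0.89. Acly stood at -0.18, Acaca at -0.38, Cidea at -0.20, Rbp4 at -0.00282 and the Fasn probe sets at -0.0993 and 0.56. Cidea and Rbp4 are themselves among the markers averaged in the covariate, so their values were not read as results.

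A second reading took the rise in mean muscle signal as a share of the level in fat of troglitazone-treated rats. Over the 57 higher probe sets this share ran from 7.99 to 394%, with a median of 19.3%. It was 109.5% for Fabp4, 96.3% for Scd, 69.7% for Rbp7, 49% for Gpihbp1, 45.8% for Lpl and 45.4% for Mgst1. Of these, Fabp4 and Lpl are also on the adipocyte list. For some other markers of that list the share was 3.37% for Lep, 5.38% for Lipe, 6.76% for Adrb3, 11% for Cidea, 11.7% for Cfd and 15.2% for Plin1. The rest of the list, including Thrsp, Pck1, Rbp4 and Aqp7, is not given here. These shares therefore do not compare the markers as a set with the other genes that rose. Albumin, which rose in adipose tissue with troglitazone, had muscle signals of 253, 123 and 192 untreated and 1036, 744 and 304 treated by one probe set, a difference of 1.66 ± 0.48 (adjusted p = 0.157) and a share of 6.3%. Another albumin probe set stood at 4.92 in adipose tissue and at only 0.291 in muscle.

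Troglitazone was compared with the other ligands, whose doses and times are likewise not given, so whether the groups were matched is unknown. Each ligand is set against the same 3 untreated arrays, which makes their differences from untreated muscle move together. By the same test pioglitazone changed 22 probe sets (0.231%), rosiglitazone 3 (0.0315%) and AG035029 11 (0.116%). For Rbp7 the difference from untreated muscle was 4.82 with troglitazone, 4.68 with pioglitazone, 3.58 with rosiglitazone and 4.27 with AG035029. For Pparg these were 2.18, 2.07, 2.04 and 1.73. Fabp4 gave 2.63, 2.03, 1.63 and 1.82, and Fasn 3.52, 2.64, 1.93 and 1.36.

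The summed signal of the adipocyte markers with each ligand was read beside these values. The sum of 17 adipocyte markers, as a percentage of the adipose mean, was 51.6, 28.2 and 31.3% with pioglitazone, 28.6, 23.3 and 25.8% with rosiglitazone and 19.5, 38.3 and 25.4% with AG035029. The troglitazone arrays, at 33.1 to 70.9%, overlapped those of pioglitazone and AG035029 and lay above those of rosiglitazone. The value for troglitazone was the largest of the 4 ligands for all 57 higher probe sets, which were chosen by that value.

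**Figure D4:**
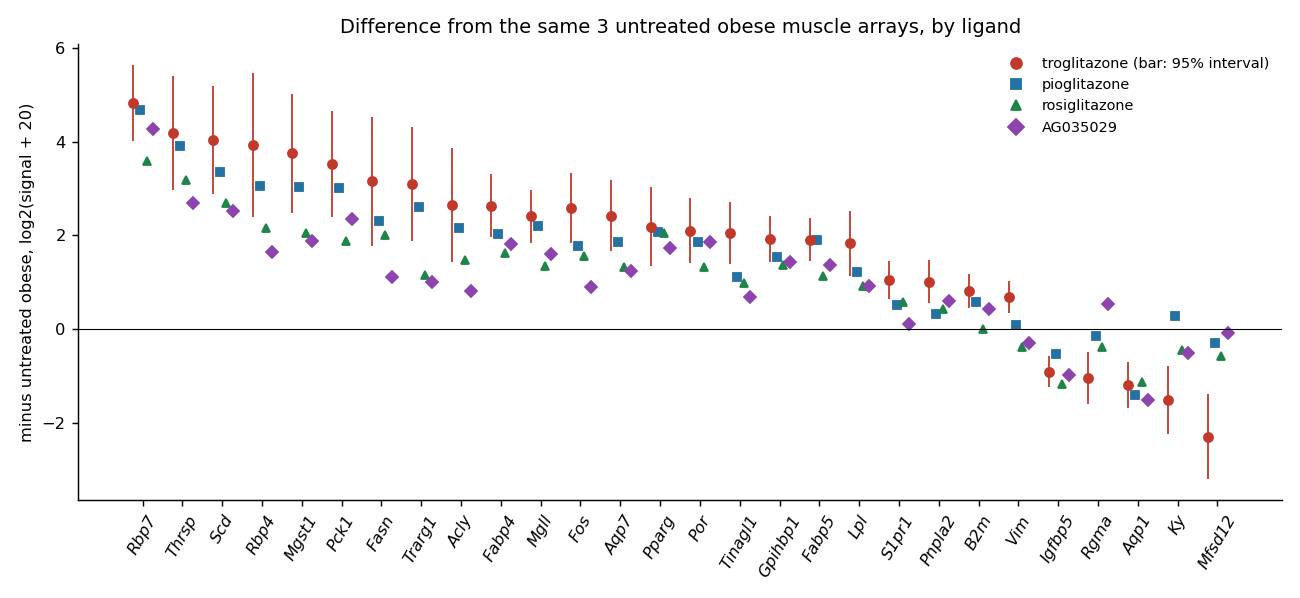
Difference from the 3 untreated obese muscle arrays (vertical axis, log2 scale) for 4 ligands and 28 genes. Bars are 95% intervals for troglitazone. Pparg lies between 1.73 and 2.18 for all ligands, whereas Vim lies at 0.68 for troglitazone and between -0.38 and 0.09 for the others.

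Tested directly, the ligands were hard to tell apart with 3 arrays each. Troglitazone minus pioglitazone gave 0 calls by limma among 9519, with 684 (7.19%) at an unadjusted p below 0.05 and a median half-width of the 95% interval of 0.516. Troglitazone minus rosiglitazone gave 1 call (0.0105%), troglitazone minus AG035029 gave 2 (0.021%), and troglitazone minus the mean of the other 3 ligands gave 1 (0.0105%). The Rbp7 difference was 0.14, with a 95% interval of -0.67 to 0.96, against pioglitazone and 1.24, with a 95% interval of 0.43 to 2.05, against rosiglitazone (adjusted p = 0.337). The Fabp4 difference was 0.60, with a 95% interval of -0.08 to 1.28, against pioglitazone, and that of Pparg was 0.11, with a 95% interval of -0.74 to 0.95.

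The gene called in most of these tests was Vim, the intermediate filament of mesenchymal cells. Its signals were 4379.6, 4564 and 4459.8 untreated, 6516, 8149 and 6897 with troglitazone, 5159, 4499.8 and 4624 with pioglitazone, 2772, 3331 and 4334 with rosiglitazone and 2855, 4171 and 4095 with AG035029. Every troglitazone array was above every array of the other 3 ligands and of untreated muscle. Vim was higher with troglitazone by 1.06, with a 95% interval of 0.72 to 1.40, against rosiglitazone (adjusted p = 0.0252) and by 0.97, with a 95% interval of 0.63 to 1.31, against AG035029 (adjusted p = 0.0435). Against pioglitazone it was 0.59, with a 95% interval of 0.25 to 0.93 (adjusted p = 0.422), and against untreated muscle 0.68 ± 0.16 (adjusted p = 0.0585), neither called.

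Rgma, a repulsive guidance molecule that also acts as a coreceptor for bone morphogenetic proteins, was lower with troglitazone than with AG035029. Its signals were 422, 204 and 267 against 1055, 830.0 and 819.9, and 927, 401 and 605 untreated. The troglitazone arrays lay below all AG035029 arrays and overlapped the untreated ones. The difference from AG035029 was -1.59, with a 95% interval of -2.14 to -1.03 (adjusted p = 0.0435), and that from untreated muscle -1.04 ± 0.27 (adjusted p = 0.0859). Numbers of calls depended on single arrays. Without troglitazone array 3, whose adipocyte marker sum was lowest, there were 33 calls against rosiglitazone and 47 against AG035029, and without troglitazone array 2 there were 0 of either. Against pioglitazone there were 8 without troglitazone array 1. The calls also went to 0 without rosiglitazone array 2 for rosiglitazone, and without AG035029 array 1 or 3 for AG035029.

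Obese and lean muscle were compared without a ligand. Between untreated obese and lean muscle 2 probe sets were called (0.021%), Fos and an unnamed one, and 0 without untreated obese array 1 or 3 or lean array 3. That comparison shares the untreated obese arrays with the comparison above. For the 57 higher probe sets the difference of obese from lean ran from -2.36 to 2.15, with a median of 0.0783. Rbp7 stood at 0.67, Scd at 1.63, Fabp4 at 0.35 and Gpihbp1 at 0.17 in that comparison, none of them called.

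The same groups were compared in adipose tissue and liver, in a joint fit of the arrays of all 3 tissues that tests whether the troglitazone difference is the same. It differed between muscle and adipose tissue for 228 of 9519 probe sets (2.4%), with muscle minus adipose tissue above 0 for 111 (1.17%). Between muscle and liver it differed for 125 (1.31%), with muscle minus liver above 0 for 91 (0.956%). A value above 0 is not always a rise in muscle. Cyp1b1, for instance, stood at -0.204 in muscle and -3.28 in adipose tissue. The count against liver was 74 without troglitazone array 2. In the joint fit 353 probe sets (3.71%) rose and 207 (2.17%) fell in adipose tissue. Of the 57 probe sets higher in muscle, 8 rose and 1 fell there, counting only those tested in the joint fit.

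Several of the largest rises were larger in muscle than in either other tissue. Rbp7 differed by 4.82 ± 0.40 in muscle, 1.45 ± 0.40 in adipose tissue and 0.29 ± 0.40 in liver, and muscle exceeded adipose tissue by 3.37 ± 0.56 (adjusted p = 0.000293) and liver by 4.54 ± 0.56 (adjusted p = 1.32e-06). Levels of Rbp7 in adipose tissue were 1416, 2092 and 2038 untreated and 4578, 4641 and 5949 with the drug, so the treated muscle signals of 3539, 4236 and 3132 approached them. Scd differed by 4.04 ± 0.50, 0.42 ± 0.50 and -2.07 ± 0.50 in the same order of tissues, with an excess of muscle over adipose tissue of 3.61 ± 0.71 (adjusted p = 0.00183) and over liver of 6.10 ± 0.71 (adjusted p = 5.58e-07).

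Pparg gave 2.18 ± 0.30 in muscle against 0.03 ± 0.30 in adipose tissue and -0.98 ± 0.30 in liver, where the value was below 0 and not called. Muscle exceeded adipose tissue by 2.15 ± 0.43 (adjusted p = 0.00226). Its adipose signals, 1427, 1297 and 1244 untreated and 1254, 1347 and 1448 treated, stood well above the muscle signals throughout. Fabp4, at 2.63 ± 0.53 in muscle, 0.37 ± 0.53 in adipose tissue and 1.55 ± 0.53 in liver, differed between muscle and adipose tissue by 2.26 ± 0.75 (adjusted p = 0.112), which was not called.

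**Figure D5:**
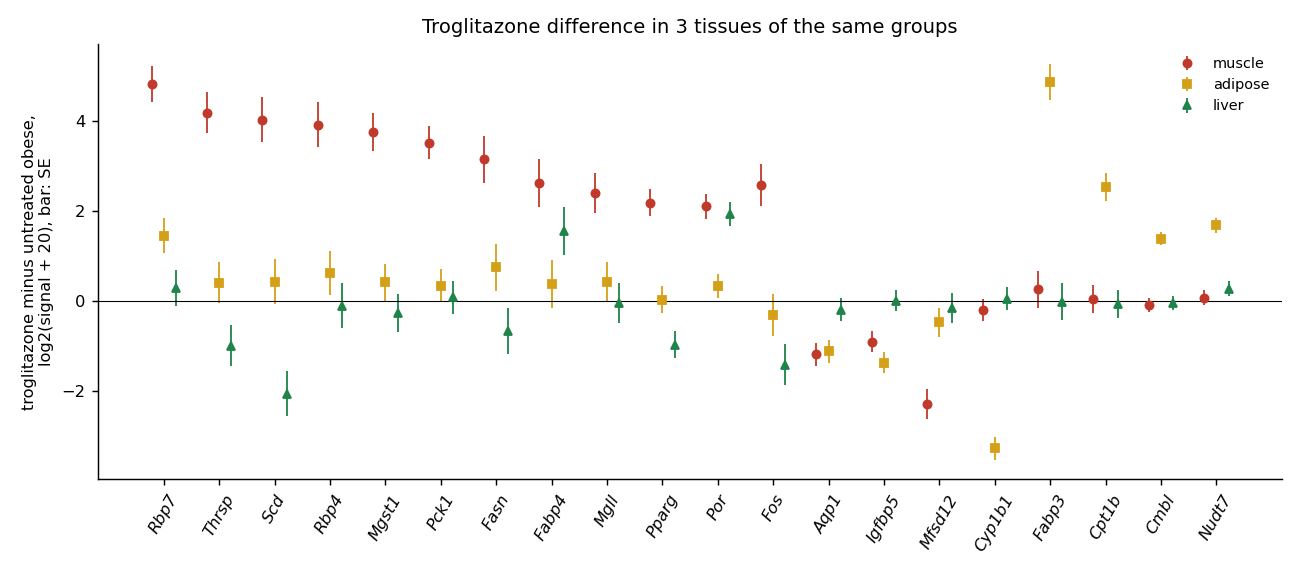
Troglitazone minus untreated obese (vertical axis, log2 scale) in muscle, adipose tissue and liver for 20 genes, from the joint fit. Bars are standard errors with 3 arrays per group. Rbp7, Thrsp, Scd, Rbp4, Mgst1, Pck1 and Fasn are highest in muscle, whereas Fabp3, Cpt1b, Cmbl and Nudt7 are highest in adipose tissue.

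Other genes moved in adipose tissue and not by the test in muscle. Fabp3, the muscle fatty acid binding protein, rose by 4.87 ± 0.41 in adipose tissue and stood at 0.25 ± 0.41 in muscle, and muscle minus adipose tissue was -4.62 ± 0.57 (adjusted p = 1.82e-06). Cyp1b1, a cytochrome P450, fell in adipose tissue (-3.28 ± 0.25) and stood at -0.20 ± 0.25 in muscle. Nudt7, a peroxisomal coenzyme A hydrolase, gave 1.68 ± 0.17 and 0.07 ± 0.17, and Cmbl, a hydrolase, 1.38 ± 0.15 and -0.09 ± 0.15. Both tissues had called falls for some genes: Aqp1 stood at -1.19 ± 0.26 in muscle and -1.13 ± 0.26 in adipose tissue, and Igfbp5 at -0.91 ± 0.23 and -1.38 ± 0.23.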

How the data were processed

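RNA of 54 pools, each of 2 rats, had been hybridised to Affymetrix rat 230A arrays. The deposited values are MAS5 intensity values per probe set, per the submitters' processing notes, and the MAS5 version is not given in the sources used here. The authors' deposited intensities had a 2% trimmed mean of 500 on each array and were used without further scaling. Background correction and scaling of this kind leave weak probe sets noisy, and no detection calls were used. The 57 controls among 15923 probe sets were not used. GEO's platform annotation gave 1 gene symbol for 12783 of the remaining 15866, several for 312 and none for 2771. No counts exist for arrays, and the number of arrays limits precision.

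Groups came from the labels. Differences in log2(signal + 20) were tested with limma 3.58.1 in R 4.3.3 (lmFit, eBayes with trend), in 1 fit of the 18 muscle arrays with 12 residual degrees of freedom, and in a joint fit of 54 arrays for the tissues. Tests covered the 9519 probe sets whose mean level exceeded the 40th percentile. The mean was over the 18 muscle arrays in the muscle fit and over all 54 in the joint fit. Both fits thus tested 9519 probe sets, which need not be the same ones. P-values were Benjamini-Hochberg adjusted over all probe sets tested in a fit, and 0.05 was the threshold. A gene with several probe sets entered a list through the probe set of highest mean. List members below the tested level count as measured, but they could not be called. The fit was tested on simulated data. RefSeq promoters came from assembly GRCr8.

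Named genes were the 10 largest rises and falls, up to 4 called members of each list, all adipocyte markers, a set of PPAR and insulin genes, and up to 5 called in each difference between ligands or tissues. The other called genes were named because they were called. Nr4a3, Elovl6, Dgat2, Dbp, Myh7, Kdr and S100a9 were named after their values were seen. The members and gene lists were chosen with earlier results of these data known.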

Additional observations from a re-analysis of the deposited data

Results flagged for a closer look

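The troglitazone difference was not the same in muscle as in other tissues for the genes below, by the interaction term of the joint limma fit. For Rbp7 the muscle difference exceeded that in adipose tissue by 3.37 and that in liver by 4.54 on the log2 scale. The excess of muscle over adipose tissue and over liver was 3.61 and 6.1 for Scd, 3.19 and 3.45 for Pck1, 3.34 and 4.02 for Mgst1, and 3.3 and 4.03 for Rbp4. For the 3 Thrsp probe sets it was 3.78 and 5.18, 3.41 and 4.83, and 2.97 and 4.78. An unnamed probe set gave 1.09 and 1.79. Fasn gave 3 and 4.33 by one probe set, and by the other 3.82 over liver. The liver value itself was below 0 for several of these, so the excess over liver includes it. It was -2.07 for Scd, -0.996, -1.03 and -1.16 for Thrsp, and -0.813 and -0.67 for Fasn. Thrsp, Pck1 and Rbp4 are on the adipocyte list, and the part of admixed fat in these differences was not tested. Mfsd12 fell more in muscle, by -1.81 relative to adipose tissue and -2.14 relative to liver, and Dvl1 by -1.58 relative to liver.

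For 5 genes the adipose tissue difference was the larger in size. Muscle minus adipose tissue was 3.08 for Cyp1b1, -4.62 for Fabp3, -1.47 for Cmbl, -1.61 for Nudt7 and -4.63 for an albumin (Alb) probe set.

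Between ligands, Vim was higher with troglitazone than with rosiglitazone by 1.06, than with AG035029 by 0.966 and than with the mean of the other 3 ligands by 0.871. Rgma was lower with troglitazone than with AG035029, at -1.59.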

How the results depend on the processing

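The count of 67 calls became 33 without an intensity trend in the variance, 22 at a threshold of 0.01 and 24 in a fit of the 6 arrays compared alone. It became 2 with the adipocyte marker level as a covariate, 25 without the arrays in doubt, and 25 to 103 with single arrays left out. Not all of these calls were among the 67. The fit of 6 arrays has fewer samples to estimate the spread. For the other changes the cause was not tested. Of the 67, 58 kept their direction in every setting. Troglitazone minus pioglitazone gave 1 call with a pseudocount of 5 and 1 without the trend, and 0 to 8 with single arrays left out. The 1 call against rosiglitazone became 0 under median centring, without the trend, with array weights, at 0.01 and without the arrays in doubt, with 0 to 33 over single arrays. The 2 against AG035029 became 0 under those settings and also with no filter and with quantile normalization, with 0 to 47 over single arrays. The 1 against the mean of the other 3 ligands became 0 under median centring, without the trend, with array weights and at 0.01, and 2 without the arrays in doubt, with 0 to 34 over single arrays. The 2 calls between obese and lean muscle became 1 with no filter, and 0 to 4 over single arrays. The counts between tissues ran from 153 to 263 for adipose tissue and from 74 to 177 for liver over single arrays.

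Same-numbered troglitazone and untreated arrays had residual correlations of 0.102, 0.13 and -0.0798, and pairs of different number at most 0.0616. Not every pair was over 0.1, so the numbers were not used as pairs, and whether they mark a shared day or batch is not in the labels. Arrays 1 and 2 of both groups correlated best with their own number, and arrays 3 did not. With the replicate block the main count was 80, of which 64 were among the 67. The block ended the calls for one Fasn probe set, Egr3 and Pgam1 and made Angptl4 a call. The count against pioglitazone was 1, and that against the mean of the other 3 ligands was 6.

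Directions turned with the adipocyte covariate for Rbp4 (-0.00282), Cdo1 (-0.0878), Tkt (-0.15), Prkar2b (-0.35), Acaca (-0.38), Acly (-0.182), Fasn (-0.0993), Cidea (-0.196), Pgam1 (-0.0696), Cfd (-1.03), Cav1 (-0.301 and -0.189), Plin1 (-0.375), Adrb3 (-0.331), Orm1 (-0.204) and Rxrg (0.266). Of these, Rbp4, Cidea, Cfd, Cav1, Plin1, Adrb3 and Orm1 are on the list that the covariate averages, so their turned signs were not read as results. Directions also turned for uncalled genes near 0. Without the arrays in doubt Fabp3 stood at -0.0688, Cpt1b at -0.0508 and Rxrg at 0.0888. With array weights Rxrg stood at 0.0128 and Rxra at 0.0812. Over single arrays left out Cpt1b ran from -0.107 to 0.276, Fabp3 from -0.253 to 0.76, Rxra from -0.544 to 0.471 and Rxrg from -0.172 to 0.0888. The median over all probe sets moved by less than 0.1 under each scaling, and signals near the background limit what can be said of leptin, Ppara and Irs1.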
